A study of Mus musculus with 12 samples.

Results

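The cycling cells of the spleen were described among PD-1+CD44+CD8+ T cells, the antigen-experienced cytotoxic T cells that carry the inhibitory receptor PD-1, of NZB/W F1 mice. These mice develop a lupus-like disease, and their splenic cells were sorted at 12 weeks of age (12W) and at 28 weeks of age (28W). The cycling cells were cluster 10 of the 12W spleen and cluster 6 of the 28W spleen, as the authors deposited the clusters. Cluster 10 held 210 of 6894 cells and cluster 6 held 528 of 6481 cells, so that 738 of the 13375 splenic cells, and of the 20510 cells of the series, were described here. The third library of the series, sorted in the same way from kidneys at 28 weeks, was used only beside them. Neither a transgene nor a treatment was listed for any group, all 3 groups shared the strain and the sort, and the number of mice behind each library was not given in the sources used here. The labels list 4 samples for each group, but each deposited table gives 1 set of cells without a map to those samples, so that each group was 1 library. For the 28W spleen the labels disagree, with 28W in the titles and 12 weeks in the field for age, and the titles were followed.

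A T cell that leaves rest enlarges, builds ribosomes, copies its DNA in S phase and then divides in mitosis. Replication genes are transcribed largely through E2F factors before and during S phase, whereas genes of the mitotic spindle and chromosome segregation follow in G2 and mitosis through promoter elements known as CHR and through NF-Y sites. Among CD8 T cells, division accompanies the response to antigen, and cells kept under chronic stimulation contain a small dividing fraction beside a larger resting one.

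Transcripts were read from the 5′ end with molecular identifiers (UMIs), each standing for 1 captured molecule. The 12W library held 34742303 UMIs and the 28W library 32023473, and the median depth was 3853 and 4128 UMIs per cell. The deposited values are means per cell of each cluster, from which whole UMI sums were recovered with the smallest positive mean of a cluster taken as 1 UMI. Levels are given as CPM, UMIs of a gene per 1000000 UMIs of the cluster, and a cluster was compared with the sum of all other cells of its library. A gene was called higher or lower when the ratio of CPM + 1 reached a log2 value of 1 or -1, and only genes with a mean of at least 10 CPM over the compared sides were considered. Listed genes under this floor stay in the size of a list but could not be called. With 1 library per group there was no replicate check, no test was made and no p-value is given. Intervals in brackets are exact 95% intervals and cover counting error only. The clusters were formed from the same transcripts, so that a cluster against the rest of its library is a description. A level is a mean over the cells of a cluster, and fewer cells carrying a transcript cannot be told apart from less of it in each cell.

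The cycling cells made up 3.05% of the 12W spleen (2.65 to 3.48) and 8.15% of the 28W spleen (7.49 to 8.84). They were rich in RNA. Cluster 10 had 14345 UMIs per cell and the other 12W cells 4747, and cluster 6 had 12208 against 4297. The cycling cells therefore carried 8.67% of all UMIs at 12W and 20.1% at 28W. In the 28W kidney, cluster 11 had the highest summed level of the marker genes and held 5.03% of cells (4.54 to 5.56). Whether doublets, droplets with more than 1 cell, contributed to these deep clusters was not tested. Mitochondrial transcripts were 1.14% of UMIs in cluster 10 and 0.909% in cluster 6, beside 1.19% and 1.11% in the other cells. The spleen libraries shared 52 cell barcodes, none of them between cluster 10 and cluster 6.

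The 5 marker genes came with the choice of these clusters, so that their levels describe them and do not test the name. Pclaf, a PCNA-binding factor of DNA replication, was at 780 CPM in cluster 10 and 11.1 CPM in the other 12W cells, a ratio of 70.1 (62.7 to 78.7). In cluster 6 it was at 402 CPM against 5.0 CPM, a ratio of 81.0 (67.7 to 97.5). Birc5, the survivin subunit of the chromosomal passenger complex, was at 483 against 6.27 CPM at 12W and at 236 against 4.18 CPM at 28W. The topoisomerase Top2a, which untangles sister chromatids, was at 497 against 11.1 CPM at 12W and at 216 against 14.0 CPM at 28W. Mki67, the Ki-67 protein that coats mitotic chromosomes, was at 351 against 8.64 CPM and at 153 against 8.99 CPM. Stmn1, a protein that destabilises microtubules, was at 1462 against 59.9 CPM and at 569 against 28.3 CPM. Each marker was thus at least 15 times as high in the cycling cluster as in the other cells at either age.

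Of all UMIs of the 5 markers together, 77.8% (77.1 to 78.5) lay in cluster 10 at 12W and 86.8% (86.2 to 87.4) in cluster 6 at 28W. Mki67 was not highest in the cycling clusters when scaled to depth. It reached 376 CPM in cluster 8 of the 12W spleen and 307 CPM in cluster 11 of the 28W spleen. Cluster 8 averaged 928 UMIs per cell with 8.98% of them mitochondrial, and the summed markers there were at 716 CPM against 3573 CPM in cluster 10. In cluster 11 of the 28W spleen 6.64% of UMIs were mitochondrial and the summed markers were at 628 CPM against 1576 CPM in cluster 6.

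**Figure D1:**
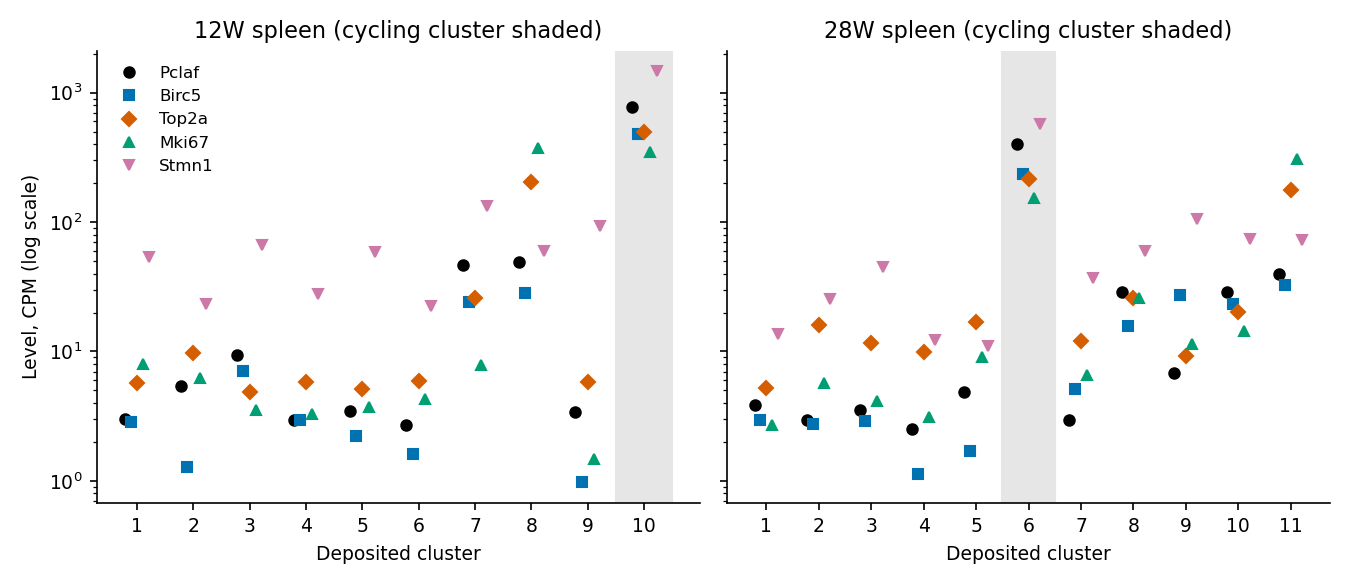
Level of each of the 5 marker genes (CPM, log axis) in every deposited cluster of the 12W spleen (left) and the 28W spleen (right), 1 point per gene and cluster, with the cycling cluster shaded. Pclaf, Birc5, Top2a and Stmn1 are highest in the shaded cluster at both ages, whereas Mki67 is higher in cluster 8 at 12W (376 CPM) and in cluster 11 at 28W (307 CPM).

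The promoters of the cycle genes are shown because genes of G2 and mitosis differed more between clusters 10 and 6 than replication genes did. The 150 bases before the start site were taken from RefSeq (GRCm38.p6) and are printed 5′ to 3′ along the gene's strand, with matches in capitals. The motifs were CCAAT for NF-Y, TTTGAA for CHR and, for E2F, TTTCCCGC, TTTCGCGC, TTTGCCGC or TTTGGCGC, each on either strand. The stretch of Top2a lies at chr11:99024190-99024339 on the minus strand, that of Mki67 at chr7:135716380-135716529 on the minus strand and that of Ccnb2, the mitotic cyclin B2, at chr9:70421555-70421704 on the minus strand. That of Mcm6, a subunit of the helicase that opens origins, lies at chr1:128359706-128359855 on the minus strand and that of Pclaf at chr9:65890173-65890322 on the plus strand.
Top2a: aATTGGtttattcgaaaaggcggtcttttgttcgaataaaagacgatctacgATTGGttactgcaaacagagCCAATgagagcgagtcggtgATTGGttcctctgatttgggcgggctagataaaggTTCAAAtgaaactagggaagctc
Mki67: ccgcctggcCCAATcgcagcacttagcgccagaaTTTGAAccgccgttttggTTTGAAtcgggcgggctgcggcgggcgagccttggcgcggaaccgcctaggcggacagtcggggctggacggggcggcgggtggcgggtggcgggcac
Ccnb2: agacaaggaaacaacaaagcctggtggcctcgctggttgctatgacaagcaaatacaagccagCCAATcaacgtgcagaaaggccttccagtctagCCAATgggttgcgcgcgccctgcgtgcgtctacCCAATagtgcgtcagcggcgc
Mcm6: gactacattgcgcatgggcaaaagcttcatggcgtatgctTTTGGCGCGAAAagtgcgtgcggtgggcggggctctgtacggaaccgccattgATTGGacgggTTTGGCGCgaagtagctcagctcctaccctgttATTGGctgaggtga
Pclaf: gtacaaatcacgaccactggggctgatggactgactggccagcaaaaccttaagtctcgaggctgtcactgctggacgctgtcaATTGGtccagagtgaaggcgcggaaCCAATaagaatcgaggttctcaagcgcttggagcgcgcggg
Top2a held 4 NF-Y matches and 1 CHR match, and Mki67 held 1 NF-Y match and 2 CHR matches. Ccnb2 held 3 NF-Y matches, and CHR was found only in its longer window described below. Mcm6 held 3 E2F matches, of which the first overlapped the next on the other strand, and 2 NF-Y matches. Pclaf held 2 NF-Y matches, and E2F was found only in its longer window. The marker Birc5, searched but not printed, held 0 matches of any motif here and in its longer window described below. Rrm2, which supplies nucleotides for DNA, was searched as well and held 1 NF-Y match and 0 E2F matches. No window was found for the marker Stmn1.

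Over the whole 300-base windows from 250 bases before to 50 bases after a start site, 47 of the 54 genes of the G2/M list were found, with 52 windows. Of these windows, 65.4% held CHR, beside 17.9% of all 32851 windows. NF-Y was in 75.0% beside 37.4%, both motifs were in 51.9% beside 6.95%, and E2F was in 5.77% beside 2.26%. Of the S phase list, 31 of 43 genes were found, which is under 80%, so that its share is void. Of the ribosome biogenesis list, 17 of 20 genes were found, with 26 windows, of which 19.2% held CHR, 23.1% NF-Y and 19.2% E2F. A match is a run of letters and not a shown binding site.

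In the 12W spleen, cluster 10 differed from the other cells first by the machinery of mitosis. Of 7129 genes considered, 417 were higher (5.85%) and 236 lower (3.31%), and the median log2 ratio over all of them was -0.17. The 10 highest ratios belonged to Nusap1, Ccnb2, Birc5, Pclaf, Ccna2, Ube2c, Mxd3, Hmmr, Top2a and Plk1. Nusap1, which bundles spindle microtubules, was at 232 CPM in cluster 10 and 2.05 CPM in the other cells, a ratio of 113 (87.8 to 148). Ccnb2 was at 242 against 2.27 CPM, a ratio of 107 (83.6 to 138), and Ccna2, the cyclin of S phase and G2, at 228 against 2.77 CPM.

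In the 28W spleen, cluster 6 shared this programme and had higher levels of growth genes as well. Of 7077 genes considered, 668 were higher (9.44%) and 404 lower (5.71%), with a median log2 ratio of -0.04 over all of them. The 10 highest ratios belonged to Pclaf, Birc5, Ccna2, Rrm2, Ube2c, Tk1, Nusap1, Ccnb2, Spc24 and Hist1h2ap, of which 6 were also among the 10 highest at 12W. Rrm2, the ribonucleotide reductase subunit that supplies nucleotides for DNA, was at 214 CPM against 4.77 CPM, a ratio of 44.9 (37.3 to 54.5). At 12W its ratio was 44.5 (39.4 to 50.5). Hist1h2ap belongs to a family of near-identical histone copies between which reads may be split, so that its 2379 CPM against 88.6 CPM is uncertain.

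Over the 6805 genes considered at both ages, 265 were higher in the cycling cluster at both and 81 were lower at both. A further 61 were higher at 12W alone and 347 at 28W alone. There were 34 genes that were lower in cluster 10 and higher in cluster 6, and 0 genes with the reverse pattern.

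**Figure D2:**
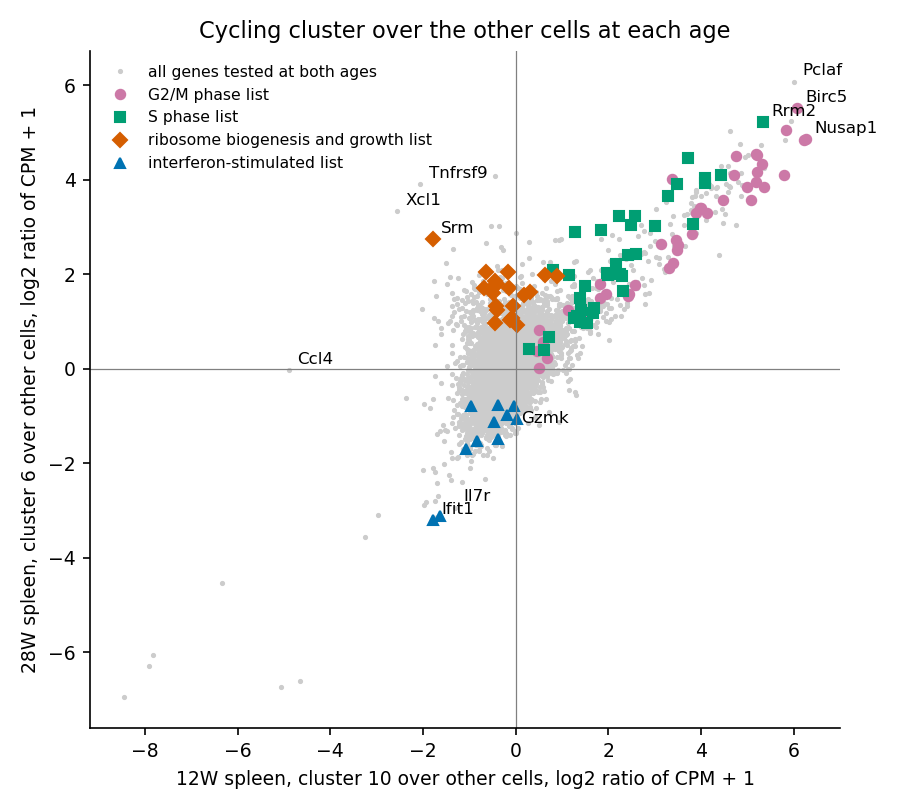
Log2 ratio of CPM + 1 of the cycling cluster over the other cells at 12W (horizontal axis) and at 28W (vertical axis), 1 point per gene considered at both ages, with 4 gene lists in colour. S phase and G2/M genes lie to the upper right, ribosome biogenesis genes lie above 0 at 28W but around 0 at 12W, and Tnfrsf9, Xcl1 and Srm lie in the upper left.

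Genes of origin licensing and firing, which load and start the replicative helicase, were higher in both clusters. Of 22 genes, 20 were called higher at 12W and 16 at 28W, with median log2 ratios of 1.96 and 2.68, and the others were within the limits or under 10 CPM. Mcm6 was at 331 CPM in cluster 10 and 117 CPM in the other cells, a ratio of 2.82 (2.62 to 3.02). At 28W it was at 269 against 78.6 CPM, a ratio of 3.42 (3.20 to 3.64). Mcm5, another subunit of this helicase, was 4.73 (4.31 to 5.19) times as high at 12W and 9.81 (8.79 to 11) times at 28W. The other 12W cells include a second RNA-rich cluster, cluster 7, in which Mcm6 was at 285 CPM and Mcm5 at 168 CPM.

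Of 28 genes of DNA synthesis and the replication fork, 25 were called higher at each age, with medians of 2.14 and 1.97. Pcna, the sliding clamp, was 4.0 (3.69 to 4.33) times as high in cluster 10 and 4.02 (3.71 to 4.35) times in cluster 6 as in the other cells. Of the 18 genes of nucleotide synthesis, 7 were called higher at 12W and 15 at 28W, with medians of 0.62 and 2.15. With cluster 7 left out of the 12W reference the 12W median was 1.23, and from cluster 10 to cluster 6 the median log2 ratio was 0.16. Tk1, the thymidine kinase, was at 158 against 5.45 CPM at 12W and at 109 against 2.35 CPM at 28W. Of 25 genes of DNA repair and the replication checkpoint, 17 were called higher at 12W and 8 at 28W, where 15 were under 10 CPM.

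Among 20 cyclins, cyclin-dependent kinases and cofactors, 12 were called higher at 12W and 13 at 28W. Cdk1, the kinase that starts mitosis, was at 188 against 4.19 CPM at 12W and at 85.8 against 2.70 CPM at 28W. Among 13 cell cycle transcription factors, 7 and 4 were called higher. E2f1 was at 54.4 CPM in cluster 10 and 29.8 CPM in cluster 6, against 6.4 and 3.21 CPM in the other cells. Mxd3, a repressor of the Max network, was at 82.0 CPM in cluster 10 and 33.2 CPM in cluster 6, and the other cells were under 1 CPM at both ages.

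The mitotic lists had the highest medians. Of 27 genes of the kinetochore, centromere and spindle checkpoint, 26 were called higher at 12W and 18 at 28W, where 8 were under 10 CPM, and the medians were 3.9 and 3.08. Cenpf, a kinetochore protein of G2 and mitosis, was 41.9 (34.5 to 51.2) times as high in cluster 10 and 14.7 (11.8 to 18.5) times in cluster 6. Of 31 genes of the spindle, its motors and cytokinesis, 29 and 22 were called higher, with medians of 3.99 and 3.14. Of 19 genes of mitotic kinases, the passenger complex and anaphase ubiquitination, 18 and 14 were called higher, with medians of 4.10 and 3.51. Aurkb, the kinase of the passenger complex, was at 98.6 against 2.80 CPM at 12W and at 52.1 against 2.11 CPM at 28W. Chromosome condensation and chromatin genes were called higher in 21 and 20 of 23 genes. Hmgb2, an abundant chromatin protein, was at 2609.5 CPM in cluster 10 and 1508.5 CPM in cluster 6, against 249 and 317 CPM in the other cells. No gene of these 10 cell cycle lists was called lower in either cycling cluster.

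The share of a list's UMIs that lay in the cycling cluster was set beside the share of all UMIs there, 8.67% at 12W and 20.1% at 28W. For the S phase list it was 28.5% (28.1 to 28.9) at 12W and 51.5% (51.1 to 52.0) at 28W. For the G2/M list it was 35.1% (34.8 to 35.4) and 48.7% (48.3 to 49.0), and for the kinetochore list 53.0% (52.1 to 53.9) and 62.4% (61.5 to 63.4). At 12W, 26.3% of S phase UMIs and 12.5% of G2/M UMIs lay in cluster 7, beside 14.4% of all UMIs. Clusters 7 and 10 of the 12W spleen thus held like shares of the S phase UMIs, while cluster 10 held the larger share of the G2/M UMIs.

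The ratio of summed S phase to summed G2/M UMIs was 0.431 (0.423 to 0.440) in cluster 10 and 0.539 (0.530 to 0.548) in cluster 6. In the other cells this ratio was 0.584 (0.576 to 0.591) at 12W and 0.480 (0.473 to 0.489) at 28W. Whether the ratio measures the balance of cycle phases was not tested. It was 1.11 in cluster 7 of the 12W spleen (1.09 to 1.14) and 0.272 in the cycling cluster of the kidney (0.268 to 0.276). For clusters 7 and 10 combined it was 0.611 (0.602 to 0.620), so that the 28W value lay between that of cluster 10 alone and that of both 12W clusters.

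Mitotic transcripts took a smaller share of the RNA in cluster 6 than in cluster 10, and this direction was lost when cluster 7 was added to the 12W side. Of 6920 genes considered, 243 were higher in cluster 6 than in cluster 10 (3.51%) and 153 were lower (2.21%), with a median log2 ratio of -0.01 over all of them. The median over the G2/M list was -1.03 and 26 of its 54 genes were called lower, with none higher. Against 12W clusters 7 and 10 combined the median was 0.10 and 0 genes were called. Over the S phase list the median was -0.57 and 5 of 43 genes were called lower. In the other cells of the libraries the medians from 12W to 28W were -0.25 for G2/M and -0.63 for S phase. Of the kinetochore list 16 of 27 genes were called lower, and of the spindle list 17 of 31, with medians of -1.07 and -1.03. Of the 28 genes of DNA synthesis 0 were called either way, with a median of -0.56.

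Every marker was lower in cluster 6 than in cluster 10. Stmn1 was 2.57 (2.46 to 2.68) times as high in cluster 10 as in cluster 6, Top2a 2.30 (2.14 to 2.48) times and Mki67 2.29 (2.1 to 2.5) times. Birc5 was 2.05 (1.91 to 2.20) and Pclaf 1.94 (1.84 to 2.05) times as high. Against clusters 7 and 10 combined, the summed markers of cluster 6 were instead 1.05 times as high, 4 of the 5 had a log2 ratio above 0 and 0 were called. Per cell, Top2a gave 7.12 UMIs in cluster 10 and 2.63 in cluster 6, and Pclaf 11.2 and 4.91. Cenpf was the member of the kinetochore list among the 10 lowest age ratios, with 170 CPM at 12W and 58.2 CPM at 28W. Mcm6 and Mcm5 differed less, at 1.23 (1.14 to 1.33) and 1.26 (1.14 to 1.39) times as high in cluster 10.

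Ribosome biogenesis genes were higher in cluster 6 than in cluster 10, with a median log2 ratio of 0.78, and this too turned, to -0.61, with cluster 7 on the 12W side. The list holds nucleolar proteins, chaperonins and polyamine enzymes that prepare a cell for growth. Of its 20 genes, 18 were called higher in cluster 6 than in the other 28W cells, with a median log2 ratio of 1.67, whereas at 12W 0 were called higher and 1 lower, with a median of -0.28. Npm1, the nucleolar chaperone nucleophosmin, was at 2467 CPM in cluster 6 and 839 CPM in the other 28W cells, and at 1928 CPM in cluster 10 and 1696 CPM in the other 12W cells. Ncl, nucleolin, was at 845 against 258 CPM at 28W and at 352 against 506 CPM at 12W. Srm, the spermidine synthase, was 6.87 (6.32 to 7.46) times as high in cluster 6 as in the other 28W cells, and 3.51 (2.95 to 4.21) times lower in cluster 10 than in the other 12W cells.

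Cluster 7 of the 12W spleen bears on this comparison. It held 372 cells, 5.4% of the library, with 13405 UMIs per cell, and 45.0% of the 12W UMIs of the ribosome biogenesis list beside 14.4% of all UMIs. Summed over the list, the level was 26944 CPM in cluster 7, 13090 CPM in cluster 6 and 8410 CPM in cluster 10. The other cells as a whole were at 8615 CPM at 12W and 4301 CPM at 28W. When cluster 7 was left out of the 12W reference, the median log2 ratio of the list in cluster 10 was 0.47. The summed markers in cluster 7 were at 238 CPM, far under the 3573 CPM of cluster 10.

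**Figure D3:**
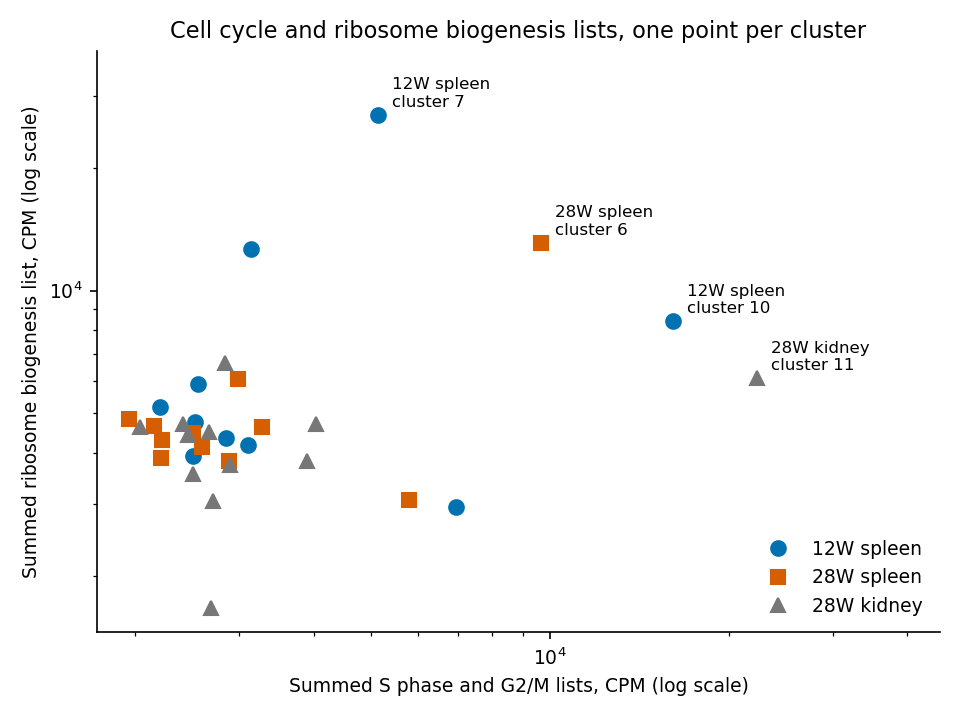
Summed level of the S phase and G2/M lists (horizontal axis) and of the ribosome biogenesis list (vertical axis), both in CPM on log axes, 1 point per deposited cluster of the 3 libraries. Cluster 6 of the 28W spleen (13090 CPM on the vertical axis) lies between cluster 7 (26944 CPM) and cluster 10 (8410 CPM) of the 12W spleen on both axes.

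Of the 34 genes that were lower in cluster 10 and higher in cluster 6, 31 had their highest 12W level in cluster 7, beside 22.0% of the 6805 genes considered at both ages. The selection itself keeps cluster 10 from being highest for these genes, so that the count is a description. With cluster 7 left out of the reference, 4 of the 34 were still called lower in cluster 10 and 0 were called higher, and their median log2 ratio went from -1.33 to -0.52. Of the 347 genes higher at 28W alone, 313 (90.2%) were highest in cluster 7 at 12W, and these too were chosen for not being called higher in cluster 10.

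Xcl1, a chemokine that attracts cross-presenting dendritic cells, was the plainest example. It was at 66.4 CPM in cluster 10, 394 CPM in the other 12W cells and 2088 CPM in cluster 7, and at 584 CPM in cluster 6 against 57.0 CPM in the other 28W cells. The 28W cycling cells were 8.80 (7.63 to 10.2) times as high in Xcl1 as those of 12W. Tnfrsf9, the costimulatory receptor 4-1BB that appears after antigen contact, was at 24.9 against 107 CPM at 12W, with 523 CPM in cluster 7, and at 153 against 9.27 CPM at 28W. Myc, the transcription factor of growth, was at 76.7 against 160 CPM at 12W, with 541 CPM in cluster 7, and at 167 against 57.3 CPM at 28W. Shmt1, an enzyme of folate metabolism, was 23.2 (17.7 to 30.8) times as high in cluster 6 as in the other 28W cells and at 19.3 against 26.8 CPM at 12W.

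Most of the difference in cycle genes was gone against clusters 7 and 10 together, a comparison chosen after the data were seen. The median log2 ratio was then 0.10 over the G2/M list and 0.00 over the S phase list, and -0.61 over the ribosome biogenesis list. The G2/M list was at 2426 CPM in cluster 7 and 11249 CPM in cluster 10, so that adding cluster 7 lowers the 12W side. Summed replication-dependent histone genes of cluster 6 went past equality. They were at 0.680 times the level of cluster 10 and 1.61 times that of both clusters, with 51 of 65 genes above 0 in the latter. Of 6876 genes considered, 79 were higher and 17 lower in cluster 6. S100a6, a calcium-binding protein of effector and memory T cells, had a log2 ratio of 2.85 and Gzmk, granzyme K, 2.53. In the other cells of the libraries these log2 ratios from 12W to 28W were 2.12 for S100a6 and 2.59 for Gzmk. Ccl4, an inflammatory chemokine, was at -1.64. Clusters 7 and 10 together made up 8.44% of the 12W spleen (7.80 to 9.12), beside 8.15% for cluster 6 of the 28W spleen. Whether cluster 6 holds separate growing and dividing cells, or cells with both programmes, was not tested, since the deposited values are means over clusters.

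**Figure D4:**
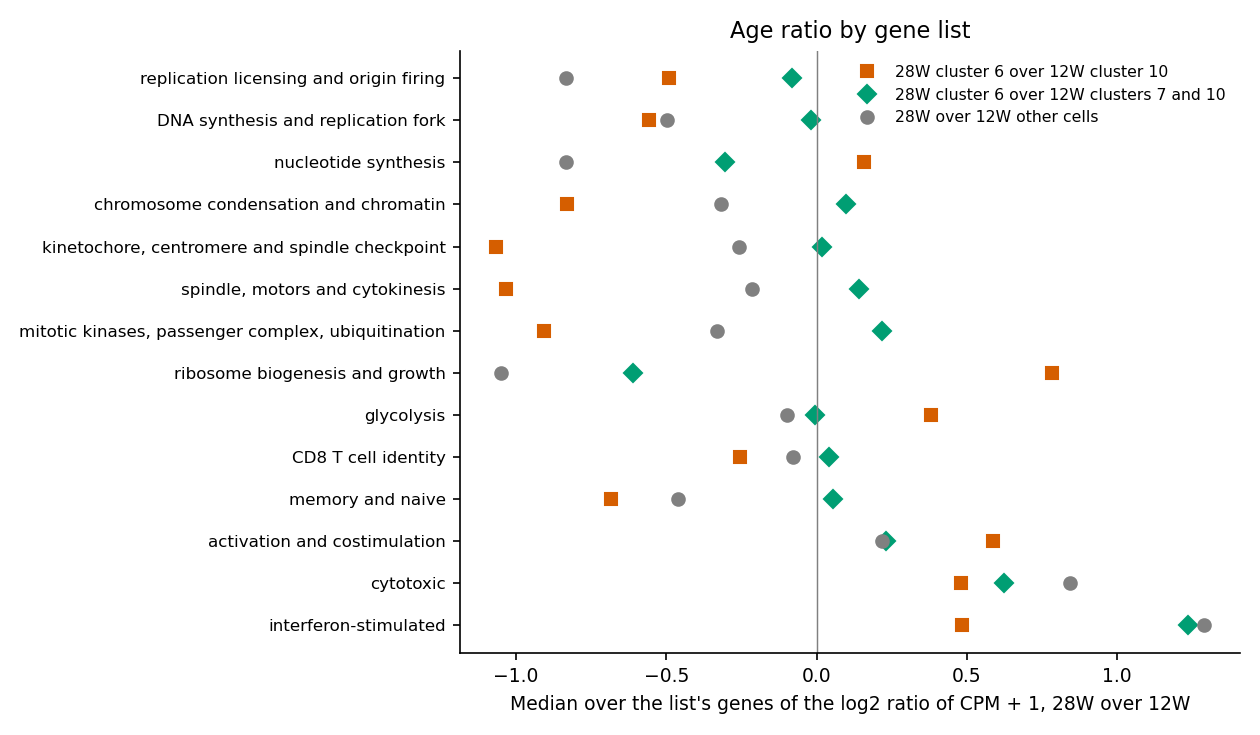
Median log2 ratio of CPM + 1 of 28W over 12W for 14 gene lists (horizontal axis, 0 is no difference), for the cycling clusters (squares), for cluster 6 over 12W clusters 7 and 10 together (diamonds) and for the other cells of each library (circles). The mitotic lists lie near -1 for the cycling clusters and near 0 for the diamonds, and ribosome biogenesis is at 0.78 for the squares, -0.61 for the diamonds and -1.05 for the circles.

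Of 16 glycolysis genes, 0 were called higher in cluster 10 and 8 in cluster 6, beside 5.85% and 9.44% of all genes considered. The medians of the list were 0.10 and 0.81. Ldha, lactate dehydrogenase A, was at 808 against 740 CPM at 12W and at 1160.2 against 483 CPM at 28W. Of 20 nuclear genes of oxidative phosphorylation, 0 and 7 were called higher, with medians of 0.31 and 0.76. From cluster 10 to cluster 6 the median log2 ratio was 0.38 for glycolysis and 0.07 for oxidative phosphorylation. With clusters 7 and 10 combined the 12W glycolysis median was 0.97, above the 0.81 of 28W.

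Both clusters kept the identity of CD8 T cells. None of the 12 genes of that list was called in either cluster. Cd8a was at 560 CPM in cluster 10 and 594 CPM in the other 12W cells, and at 468 and 493 CPM at 28W. Cd4 had 0 UMIs in cluster 10, which allows up to 0.996 CPM. Pdcd1, which encodes PD-1, was at 26.9 CPM in cluster 10 and 35.1 CPM in cluster 6, beside 37.5 and 34.6 CPM in the other cells. Of 11 genes of the list of inhibitory receptors and Tox, 4 were under 10 CPM at each age. Of the 11, 0 were called higher and 2 lower in cluster 10, and 1 higher and 0 lower in cluster 6. The gene called higher was Cd160, an inhibitory receptor, at 54.5 against 25.0 CPM at 28W, beside 48.8 against 68.2 CPM at 12W. Of all genes considered, 5.85% were higher and 3.31% lower at 12W, and 9.44% and 5.71% at 28W.

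Of 16 cycle inhibitors and quiescence genes, 1 was called higher and 1 lower at 12W, and 0 higher and 5 lower at 28W. Of all genes considered, 5.85% were higher and 3.31% lower at 12W, and 9.44% and 5.71% at 28W. The medians of the list were -0.28 and -0.25, beside -0.17 and -0.04 over all genes. From clusters 7 and 10 combined to cluster 6 the median was 0.48, with 13 of 16 genes above 0 and 0 called. Klf2, a factor of resting and recirculating T cells, was at 502 against 769 CPM at 12W and at 371 against 1324 CPM at 28W. Per cell this was 7.20 against 3.65 UMIs at 12W and 4.53 against 5.69 UMIs at 28W, so that at 12W the direction depends on the scaling to depth. The gene called higher was Cdkn2c, an inhibitor of CDK4 and CDK6, at 40.5 against 3.21 CPM at 12W. It was at 15.5 against 4.38 CPM at 28W, and its mean there was under the floor of 10 CPM.

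Of 10 genes of memory and naive cells, 1 was called lower at 12W and 3 at 28W, beside 3.31% and 5.71% of all genes considered. Il7r, the receptor of the survival cytokine interleukin 7, was 2.50 (2.21 to 2.83) times lower in cluster 10 than in the other 12W cells. In cluster 6 it was 7.81 (7.02 to 8.72) times lower than in the other 28W cells. Cluster 10 was 3.02 times as deep as the other 12W cells, and cluster 6 was 2.84 times as deep at 28W. The direction of Il7r at 12W thus depends on the scaling to depth. The list had median log2 ratios of -0.51 at 12W and -0.39 at 28W in CPM, but 1.085 and 1.117 in UMIs per cell. The direction of the list thus depends on the scaling to depth. Of 14 cytotoxic genes, 1 was called higher and 2 lower at 12W, and 1 higher and 4 lower at 28W. Their medians were -0.22 and -0.69 in CPM, but 1.359 and 0.8113 in UMIs per cell. Of all genes considered, 5.85% were higher and 3.31% lower at 12W, and 9.44% and 5.71% at 28W. The counts of 1 cytotoxic gene called higher are thus near these shares. Ccl5, a chemokine of effector and memory cells, was at 442 against 1411 CPM at 12W and at 737 against 4810 CPM at 28W. Per cell, Ccl5 gave 6.34 against 6.70 UMIs and 9.0 against 20.7 UMIs. Gzma, granzyme A, was the gene called higher at 12W, at 104 against 46.4 CPM, and Gzmb, granzyme B, that at 28W, at 48.4 against 23.3 CPM.

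Of 13 interferon-stimulated genes, 3 were called lower in the cycling cluster at 12W and 9 at 28W, beside 3.31% and 5.71% of all genes considered. The medians of the list were -0.84 and -1.5. With clusters 7 and 10 combined the 12W median was -1.44, close to that at 28W. In UMIs per cell the medians were 0.6911 for cluster 10 and -0.01487 for cluster 6, so that the direction at 12W depends on the scaling to depth. Ifit3, an antiviral effector, was 3.36 (2.30 to 5.13) times lower in cluster 10 and 9.36 (7.5 to 11.8) times lower in cluster 6 than in the other cells. Isg15, a ubiquitin-like modifier, was at 48.8 against 68.2 CPM at 12W and at 86.6 against 192 CPM at 28W. Between the cycling clusters the list had a median log2 ratio of 0.48 from 12W to 28W, beside 1.29 in the other cells. From clusters 7 and 10 combined it was 1.24, with 8 of 13 genes called higher. Of 13 chemokine receptors and integrins, 0 were called lower in cluster 10 and 5 in cluster 6, beside 3.31% and 5.71% of all genes considered. Under 10 CPM were 4 of the 13 at 12W and 2 at 28W. Itgb1, the integrin beta 1 chain, was among the 5 called lower in cluster 6, at 166 against 466 CPM. Summed over this list, cluster 6 gave 9.06 UMIs per cell and the other 28W cells 7.18, so that this direction too depends on the scaling to depth.

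At 12W, activation genes such as Tnfrsf9, Myc, Nr4a1 and Irf4 were higher in cluster 7 than in cluster 10. Of 15 genes of activation and costimulation, 0 were called higher and 2 lower at 12W, and 5 higher and 1 lower at 28W. The 5 were Tnfrsf9, Myc, Nr4a1, Irf4 and Tnfrsf4. Under 10 CPM were 5 of the 15 at 12W and 1 at 28W. Of all genes considered, 5.85% were higher and 3.31% lower at 12W, and 9.44% and 5.71% at 28W. Nr4a1, an early gene of antigen receptor signalling, was at 59.1 CPM in cluster 6 against 15.9 CPM, and at 55.1 against 68.5 CPM at 12W. Of 12 cytokines and chemokines, 7 were under 10 CPM at 12W and 4 at 28W and could not be called. Of the 12, 0 were called higher and 2 lower at 12W, and 1 higher and 1 lower at 28W. Among them, Ccl4 had 7 UMIs in cluster 10, or 2.32 CPM, against 97.3 CPM in the other 12W cells and 490 CPM in cluster 7. At 28W Ccl4 was at 97.9 CPM in cluster 6 and 100 CPM in the other cells. Of 9 effector transcription factors, 4 were under 10 CPM in the comparison of cluster 6 with cluster 10. Of the 9, 3 were called higher in cluster 6 and 0 lower, beside 3.51% and 2.21% of all genes considered. The median log2 ratio of the list was 1.44. Against clusters 7 and 10 combined 0 were called and the median was 0.44. In the other cells 2 were called higher and 0 lower from 12W to 28W, with a median of 0.52. Eomes, a factor of effector and exhausted CD8 cells, was 4.25 (3.38 to 5.42) times as high in cluster 6 as in cluster 10.

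Of further genes, Ccr9, Igfbp4 and Cd7 were lower in cluster 6 than in cluster 10, whereas Lag3 was higher. Ccr9, a gut-homing chemokine receptor, was 5.75 (4.35 to 7.67) times as high in cluster 10 as in cluster 6, at 62.4 and 10.9 CPM. It was at 62.2 and 9.46 CPM in the other cells, so that it differed alike outside the cycling cells. Igfbp4, a growth factor binding protein, was 4.31 (3.63 to 5.14) times as high in cluster 10. Cd7, a T cell surface protein, was 3.81 (3.45 to 4.21) times as high there. Neither was among the 5 lowest age ratios once that of the other cells was subtracted. Neither is therefore taken as particular to the cycling cells. Lag3, an inhibitory receptor, was 3.58 (2.79 to 4.65) times as high in cluster 6 as in cluster 10, at 84.4 and 23.6 CPM, beside 118 and 34.5 CPM in the other cells.

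Lockd, a noncoding transcript beside Cdkn1b, had the lowest value when the age ratio of the other cells was subtracted from that of the cycling cells, at -1.99 on the log2 scale. It was at 123 CPM in cluster 10 and 49.3 CPM in cluster 6, and at 4.95 and 8.56 CPM in the other cells. The highest values of this difference belonged to Tnfrsf9, Xcl1, Ccl4, Srm and Shmt1. At 12W each of these was higher in cluster 7 than in cluster 10.

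Receptor gene segments did not narrow to a few in the cycling cells. Their spread was summarised as an effective number, the number of equally used segments with the same entropy. For Trbv segments it was 10.9 in cluster 10 and 10.8 in the other 12W cells, and 9.63 in cluster 6 and 10.7 in the other 28W cells. For Trav segments it was 40.2 and 45.9 at 12W, and 43.1 and 46.8 at 28W. Trbv13-2 made up 24.2% of Trbv UMIs in cluster 10 and 20.9% in the other 12W cells, and Trbv13-1 made up 25.0% in cluster 6 and 21.3% in the other 28W cells. The UMIs of 1 cell are not independent and carry no interval, and segments are not clones.

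The lowest ratios were led by genes of other cell types. At both ages, 4 of the 10 lowest were Hba-a1, Hbb-bs and Hbb-bt, which encode haemoglobin, and Jchain, the joining chain of antibodies. Haemoglobin genes were concentrated in cluster 3 of the 12W spleen, at 36969 CPM, and in cluster 8 of the 28W spleen, at 40615 CPM. Ngp, a neutrophil granule gene, had 0 UMIs in cluster 6 and 68.9 CPM in the other 28W cells, at least 148-fold lower with 3 UMIs taken as the limit.

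Markers of other cell types were far under their highest cluster for most lists, but not the lowest, and their part in the results was not tested. Counted from the highest level, cluster 10 was number 3 of 10 clusters for B cell, plasma cell and erythroid genes. Cluster 6 was number 4 of 11 for B cell and plasma cell genes and number 2 for thymocyte and progenitor genes, at 4.34 against 4.37 CPM in the highest cluster. Summed B cell genes were at 115 CPM in cluster 10 and 132 CPM in cluster 6, beside up to 3257 CPM and 26597 CPM in another cluster, and Ebf1 and Pax5 were among the genes at 0 in cluster 10. Summed myeloid genes were at 22.9 and 26.5 CPM and natural killer genes at 10.6 and 6.98 CPM, with Ncr1 at 0 in both. Summed plasma cell genes were at 4.98 and 21.1 CPM, dendritic cell genes at 1.33 and 4.81 CPM, CD4 and regulatory T cell genes at 76.0 and 56.3 CPM, gamma delta and type 17 genes at 29.2 and 28.2 CPM, and thymocyte and progenitor genes at 3.98 and 4.34 CPM. Summed erythroid genes were at 70.4 and 38.9 CPM. Of these, Car1, a carbonic anhydrase, was 12.0 (8.77 to 16.4) times as high in cluster 10 as in the other 12W cells and 16.0 (10.5 to 25.2) times in cluster 6 as in the other 28W cells, whereas Alas2 had 0 UMIs in cluster 10.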

How the data were processed

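Single cells sorted as PD-1+CD44+CD8+ T cells were sequenced with 10x 5′ chemistry and aligned to GRCm38. The submitters' processing notes name Cell Ranger 2.1.1 and R 3.6.1. Cell filters, doublet handling and the annotation release were not given in the sources used here. The authors deposited, for each cluster and gene, a mean count per cell (treated as score values), and the cluster of each barcode. They also deposited fold changes and p-values of each cluster, which were not used. Each mean was divided by the smallest positive mean of its cluster, which assumes that this mean stands for the smallest possible UMI count. The quotients were whole (552714 values, 100% whole within 0.001), and they were taken as UMIs, summed and scaled to CPM. The depth was 34742303 UMIs at 12W, 32023473 at 28W and 29937384 in the kidney. All columns were mapped.

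The clusters, the 35 gene lists and the comparisons were chosen with earlier results of these data known. Genes were named by rule, namely the markers, the 10 highest and 10 lowest ratios of each comparison with at least 50 CPM on either side, the 5 highest and 5 lowest differences of age ratios, and up to 4 of the most abundant genes of each list with any listed gene called. Receptor segments were ranked apart. S100a6, Pdcd1 and the genes of other cell types at 0 UMIs lie outside the rule and were chosen after their values were seen. Intervals are exact (Clopper-Pearson for shares, Poisson for counts, conditional for ratios), and 3 UMIs were the limit for a count of 0. Alternatives covered the pseudocount, the floor, the scaling, the reference cells and, added after seeing the data, cluster 7. Scripts in Python 3.11.15 (numpy 2.4.6, pandas 2.3.3, scipy 1.17.1) were tested on simulated data. Promoter windows came from RefSeq.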

Additional observations from a re-analysis of the deposited data

Results flagged for a closer look

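Of the 34 genes with opposite directions at the ages, 6 met the rule for named genes: in these the cycling cluster was lower than the other cells at 12W and higher at 28W, each past a log2 ratio of 1 in size. The 28W log2 ratio less the 12W log2 ratio was 5.97 for Tnfrsf9, 5.89 for Xcl1, 4.53 for Srm, 3.73 for Mettl1, 2.58 for Myc and 2.44 for Cd200. With 1 library per age these differences were not tested. With cluster 7 left out of the 12W reference, the 12W log2 ratio was -0.22 for Tnfrsf9, -0.24 for Xcl1, -0.30 for Srm, -0.39 for Mettl1, -0.22 for Myc and -1.06 for Cd200. Cd200, a surface glycoprotein, was at 83.4 CPM in cluster 7, 13.3 CPM in cluster 10 and 71.8 CPM in cluster 6. Mettl1, a transfer RNA methyltransferase, was at 177 CPM in cluster 7, 15.3 CPM in cluster 10 and 65.9 CPM in cluster 6.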

How the results depend on the processing

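No paired analysis was possible because each group was 1 library without replicate numbers that could be tied to cells. For the same reason no replicate could be left out. Taking 12W clusters 7 and 10 together, an alternative chosen after seeing the data, turned the age ratio of the G2/M list from -1.03 to 0.1045 (log2) and brought that of the S phase list to 8.202e-05. The age counts became 79 higher and 17 lower, the 12W counts against the other cells 880 higher and 770 lower, and the 12W share 8.44%. Without cluster 7 in the reference, also added, the 12W S phase median was 2.675. With a pseudocount of 10 CPM the list medians shrank, to 1.644 (S phase) and 2.306 (G2/M) at 12W, 1.561 and 1.464 at 28W, and -0.8166 for G2/M between ages. The genes lower then numbered 58 at 12W and 173 at 28W, and between ages 106 were higher and 52 lower. At a floor of 50 CPM, 149 genes were higher and 41 lower at 12W, 272 and 138 at 28W, and 56 and 54 between ages. UMIs per cell, which keep the greater depth of the cycling cells, gave medians of 3.832 (S phase) and 5.695 (G2/M) at 12W, 3.774 and 5.262 at 28W, and -0.8005 and -1.279 between ages. They gave 5846 higher and 10 lower at 12W, 5420 and 26 at 28W, and 160 and 346 between ages. Of 27 list medians, 17 kept their sign in UMIs per cell. At 12W the median turned from -0.2802 to 1.315 for ribosome biogenesis and from -0.2221 to 1.359 for cytotoxic genes. It also turned for memory genes (1.085), interferon-stimulated genes (0.6911), inhibitory receptors (0.9199) and activation genes (0.9053). At 28W it turned for cytotoxic genes (0.8113), memory genes (1.117), inhibitory receptors (1.38) and activation genes (1.35). Weighting the other clusters equally gave S phase medians of 2.073 at 12W and 2.031 at 28W and a G2/M median of 2.248 at 28W, with 797 and 656 genes lower. Without low-RNA clusters the 28W share was 8.964%. The log2 S to G2/M ratio from median levels was -0.3432 at 12W and -0.2597 at 28W. Summed UMIs gave 0.431 and 0.539 before taking log2, so that the ages lay closer together from median levels. The depth limits genes under 10 CPM, and sampling of mice could not be assessed.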
